A study of Arabidopsis thaliana with 8 samples.

Results

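The genes described here are 9 auxin transporters of Arabidopsis thaliana, the influx carriers AUX1, LAX1, LAX2 and LAX3 and the ATP-binding cassette transporters ABCB1, ABCB4, ABCB11, ABCB19 and ABCB21. They were taken by locus code and not by a cut on their values, but with earlier results of these data known. All 9 had 1 entry each among the 29920 loci measured. RNA came from 7-day-old seedlings of the wild type, ecotype Columbia-0, and of the root meristemless1 (rml1) mutant, cut into shoots and roots. Both genotypes grew on vertical plates, on a medium with 1 mM KNO3, 100 uM NaH2PO4 and 0.5% sucrose, with no further treatment. The photoperiod was 16 h at 20 degrees, with an irradiance of 150 umol per square metre per second. The rml1 mutant is known for a lesion in the gene for the first enzyme of glutathione synthesis and for a primary root that stops growing, and the labels used here do not name the ecotype it is in. There were 3 arrays of rml1 shoots (pools of 61, 65 and 108 shoots), 3 of wild type shoots (30 shoots each), 1 of rml1 roots (234 roots) and 1 of wild type roots (90 roots). The shoot arrays are labelled as biological replicates. The root arrays have no replicate, so a root difference carries no error and no test.

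Auxin enters plant cells partly by diffusion and partly through the AUX/LAX proteins, which carry it together with protons. The anion does not cross the plasma membrane by itself, and it leaves the cell through PIN proteins, whose placement on one side of the cell gives the flow its direction, and through ABCB transporters, which use ATP. AUX1 is known for root gravitropism and root hair growth, LAX1 for organ positioning at the shoot apex, LAX2 for vein formation and LAX3 for the emergence of lateral roots. ABCB1 and ABCB19 carry auxin over long distances and reach the plasma membrane with the help of the immunophilin TWD1. ABCB4 acts in the root epidermis and has been described as moving auxin in either direction depending on its concentration, ABCB21 is its close homologue, and ABCB11 is a less studied relative.

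In rml1 shoots ABCB4 rose 6.64-fold and ABCB1 and ABCB19 rose by 0.58 and 0.59 log2 units, whereas the influx carrier LAX1 fell by 0.46 and ABCB21 fell by 0.33 on the log2 scale. In roots, all 4 influx carriers were lower on the rml1 array than on the wild type array, by 0.78 to 1.91 log2 units, as were 51.3% of all loci by any amount, and 4 of the 5 ABCB genes were higher, by 0.78 to 1.81 log2 units. ABCB19 was the ABCB gene that was lower in rml1 roots. Of the 9 genes, 3 rose in shoots, 2 fell and 4 did not pass (limma, Benjamini-Hochberg adjusted p under 0.05), while 23.9% of all loci passed, 13.3% upward and 10.6% downward. The change was at least 2-fold and called for 1 of the 9, ABCB4, against 4.83% of all loci. The groups of 3 shoot arrays did not overlap for 8 of the 9 genes, against 42.1% of all loci. The median size of the shoot change, whatever its sign, was 0.34 log2 units over the 9 genes and 0.21 over all loci.

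**Figure D1:**
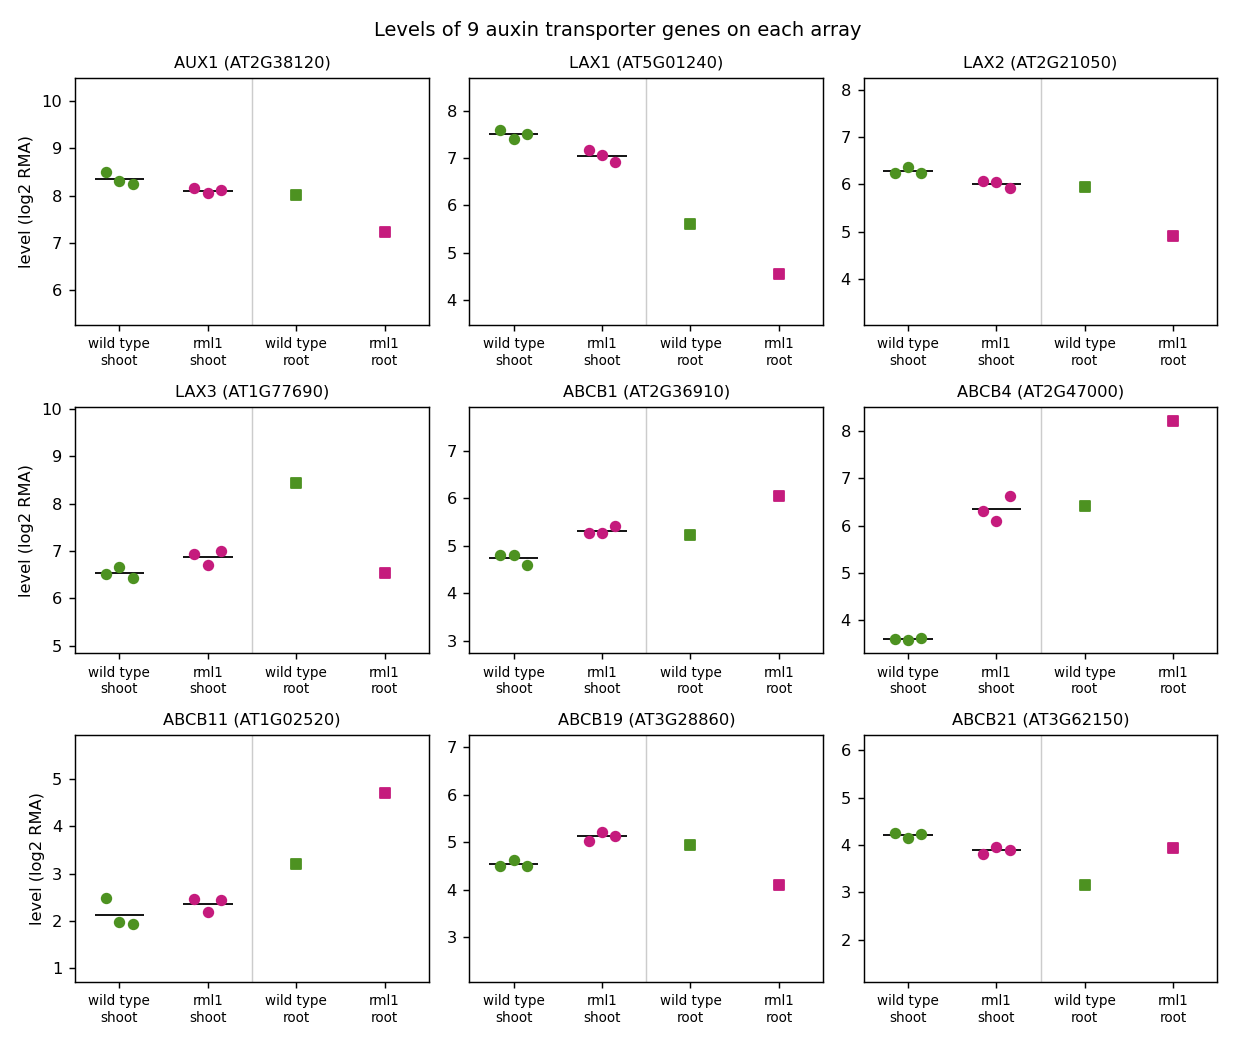
Level of each of the 9 genes (log2 RMA value, vertical axis spanning the same number of units in every panel) on the 8 arrays, with circles for shoots, squares for roots, green for the wild type and magenta for rml1; horizontal bars are means of 3 shoot arrays. ABCB4 shows the widest gap between shoot groups, with a mean of 3.61 in the wild type and 6.34 in rml1, and AUX1, LAX1 and LAX2 are lowest in the rml1 root.

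AUX1 (AT2G38120), the founding influx carrier, read 8.15, 8.05 and 8.11 in rml1 shoots 1, 2 and 3, 8.51, 8.30 and 8.25 in wild type shoots, 7.24 in the rml1 root and 8.02 in the wild type root (log2 levels). Every rml1 shoot array lay below every wild type shoot array, by a gap of 0.094, and both roots lay below the shoots of their genotype. The shoot difference of -0.25 (SE 0.10) did not pass in limma (adjusted p = 0.117). In roots AUX1 was 1.72-fold higher in the wild type. The order of levels was wild type shoot, rml1 shoot, wild type root and rml1 root, with a wild type root just outside the range of the rml1 shoots.

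LAX1 (AT5G01240) read 7.17, 7.06 and 6.92 in rml1 shoots, 7.60, 7.41 and 7.51 in wild type shoots, 4.56 in the rml1 root and 5.61 in the wild type root. The groups did not overlap in shoots, and both roots were far below the shoots, by 1.90 log2 units in the wild type and by 2.49 in rml1. The mean fell from 7.51 ± 0.10 in wild type to 7.05 ± 0.13 in rml1 shoots (SD, n = 3 arrays each), a log2 change of -0.46 (SE 0.10, limma adjusted p = 0.0184). The fall no longer passed when rml1 array 3 (adjusted p = 0.0658) or wild type array 3 (0.0531) was left out. In roots LAX1 was 2.07-fold higher in the wild type, so the mutant had the lower level in both organs.

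LAX2 (AT2G21050), the carrier tied to vein formation, read 6.07, 6.06 and 5.93 in rml1 shoots, 6.25, 6.37 and 6.24 in wild type shoots, 4.91 in the rml1 root and 5.96 in the wild type root. The shoot groups were separated by 0.17, and the wild type root was within the range of the rml1 shoots. The shoot difference was -0.27 (SE 0.09, limma adjusted p = 0.0722) and did not pass, and in roots LAX2 was 2.07-fold higher in the wild type. The 8 values of LAX2 followed those of AUX1 more closely than any other pair of the 9 genes: after each gene was centred on its own mean, they differed by a root mean square of 0.13 log2 units.

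LAX3 (AT1G77690), which new lateral roots need to pass through the overlying cells, read 6.95, 6.70 and 6.99 in rml1 shoots, 6.52, 6.66 and 6.44 in wild type shoots, 6.53 in the rml1 root and 8.45 in the wild type root. The wild type root stood above all other arrays, by 1.91 log2 units over the mean of wild type shoots, and the rml1 root was within the range of wild type shoots. The root difference between genotypes was -1.91, or 3.77-fold higher in the wild type, and 3.35% of all loci differed at least as much in either direction. In shoots the difference had the opposite sign, 0.34 (SE 0.11), with a gap of 0.042 between the groups, and did not pass in limma (adjusted p = 0.0699, but 0.0416 when rml1 array 2 was left out).

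ABCB1 (AT2G36910), an auxin exporter, read 5.26, 5.27 and 5.41 in rml1 shoots, 4.80, 4.80 and 4.61 in wild type shoots, 6.06 in the rml1 root and 5.22 in the wild type root. The rml1 sample was the higher in both organs. In shoots the level rose from 4.74 ± 0.11 to 5.31 ± 0.08, a log2 change of 0.58 (SE 0.10, limma adjusted p = 0.0060). With each array left out in turn the adjusted p stayed between 0.0139 and 0.0277. In roots the gene was 1.79-fold higher in rml1, and the wild type root lay just below the range of the rml1 shoots.

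ABCB19 (AT3G28860), which carries auxin down the stem and hypocotyl, read 5.03, 5.21 and 5.13 in rml1 shoots, 4.50, 4.62 and 4.49 in wild type shoots, 4.10 in the rml1 root and 4.94 in the wild type root. Its shoot change was close in size to that of ABCB1, with a rise from 4.54 ± 0.07 to 5.12 ± 0.09 (log2 0.59, SE 0.09, limma adjusted p = 0.0043, and 0.0118 to 0.0211 with 1 array left out). The root arrays differed the other way, with a level 1.79-fold higher in the wild type, and the rml1 root was the lowest of the 8 arrays.

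ABCB4 (AT2G47000) read 6.31, 6.09 and 6.62 in rml1 shoots, 3.61, 3.60 and 3.63 in wild type shoots, 8.22 in the rml1 root and 6.41 in the wild type root. In wild type seedlings the root level was 2.80 log2 units above the mean of the shoots, and the wild type shoots were below the array medians. The rml1 shoots reached the level of the wild type root, which lay within their range. The rise in shoots was 2.73 log2 units (SE 0.14, limma adjusted p = 0.000139), from 3.61 ± 0.015 to 6.34 ± 0.27, and it was 2.59 to 2.86 with 1 array left out. It ranked 62nd among all rises over 29920 loci, and 0.351% of loci changed by at least as much in either direction. In roots ABCB4 was 3.50-fold higher in rml1, and 3.93% of loci differed by at least as much.

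ABCB21 (AT3G62150), the homologue of ABCB4, read 3.80, 3.97 and 3.90 in rml1 shoots, 4.26, 4.14 and 4.24 in wild type shoots, 3.94 in the rml1 root and 3.16 in the wild type root. The wild type root was the lowest array, and the rml1 root was level with the rml1 shoots. Its shoot change was opposite in sign to that of ABCB4, from 4.22 ± 0.06 to 3.89 ± 0.08 (log2 -0.33, SE 0.09, limma adjusted p = 0.0367). The fall did not pass when any 1 of the 6 arrays was left out. Omitting rml1 arrays 1, 2 or 3 gave an adjusted p of 0.128, 0.0525 or 0.0962, and omitting wild type arrays 1, 2 or 3 gave 0.0831, 0.0601 or 0.0969. In roots ABCB21 was 1.71-fold higher in rml1.

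ABCB11 (AT1G02520) read 2.46, 2.19 and 2.45 in rml1 shoots, 2.48, 1.99 and 1.93 in wild type shoots, 4.70 in the rml1 root and 3.20 in the wild type root. The shoot groups overlapped, and 3 of the shoot values were below the lower quartile of their array. The shoot difference of 0.23 (SE 0.17) did not pass in limma (adjusted p = 0.352). The root level was 2.83-fold higher in rml1, and the rml1 root was the single array on which ABCB11 stood above the array median. Its tandem neighbour ABCB12 (AT1G02530) read 1.39 to 1.86 on all 8 arrays, always below the lower quartile, and was 0.32 log2 units lower in the rml1 root than in the wild type root. Whether probes of ABCB11 respond to other genes was not tested.

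**Figure D2:**
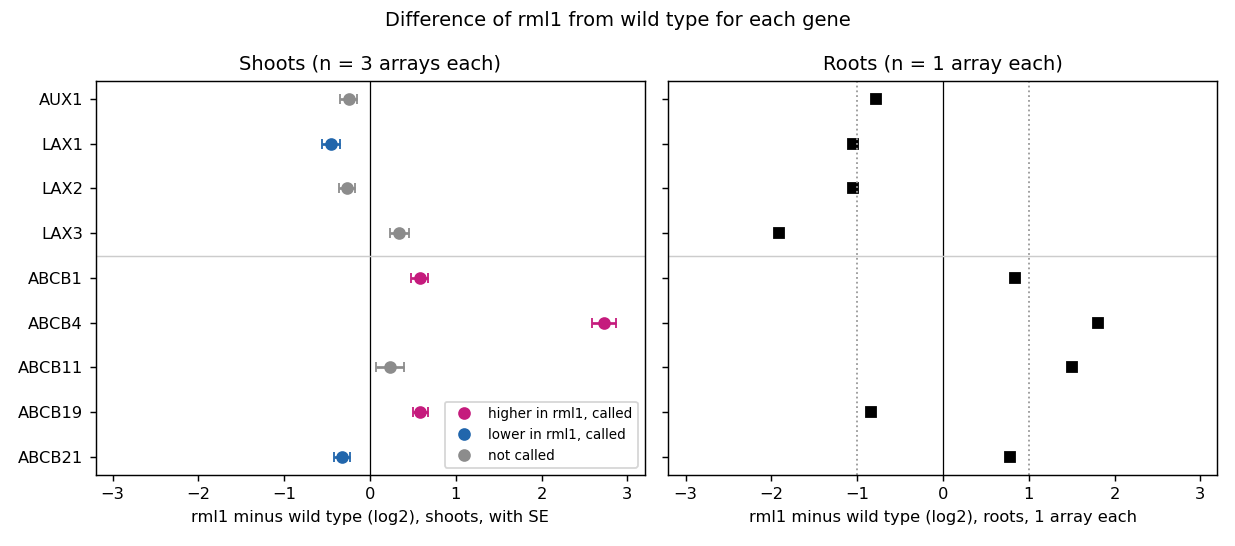
Difference of rml1 from wild type (log2) for each gene, in shoots (left, circles with standard error, n = 3 arrays each) and in roots (right, squares, n = 1 array each, dotted lines at a 2-fold difference). In shoots ABCB4 stands at 2.73 and the other genes lie between -0.46 and 0.59, while in roots the AUX/LAX genes lie between -1.91 and -0.78.

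For 8 of the 9 genes the root difference exceeded the shoot difference in size, and for ABCB4 it was the smaller (1.81 against 2.73). The root difference was also the larger for 9 of the 16 other full-size ABCB genes, 9 of the 15 PIN and PILS genes and 8 of the 13 genes of trafficking, chaperones and kinases. The share over all loci is not given here, so the 8 of 9 is not read as a trait of these genes. A root difference rests on 1 array per genotype and a shoot difference on means of 3, so their sizes are not equally precise. At a 2-fold difference, 2 of the 9 genes were higher in the rml1 root (ABCB4 and ABCB11) and 3 were lower (LAX1, LAX2 and LAX3). Over all loci 12.6% differed by 2-fold, 5.25% upward and 7.33% downward. All 9 genes differed at least 1.5-fold, 4 upward and 5 downward, as did 27.6% of all loci. The median size of the root difference was 1.05 log2 units over the 9 genes and 0.31 over all loci. In shoots these medians were 0.34 and 0.21. The shoot and root differences had the same sign for 6 of the 9 genes and for 61.8% of all loci, and the 3 genes with opposite signs were LAX3, ABCB19 and ABCB21.

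The genotypes also differed in how root and shoot levels compared. Against the mean of wild type shoots, the wild type root was at least 2-fold higher for 3 genes (LAX3, ABCB4 and ABCB11, by 1.91, 2.80 and 1.07 log2 units) and at least 2-fold lower for 2 (LAX1 and ABCB21, by -1.90 and -1.05). Over all loci 13.8% were higher and 9.98% lower. Against the mean of rml1 shoots, the rml1 root was higher for 2 genes (ABCB4 and ABCB11, by 1.87 and 2.34) and lower for 3 (LAX1, LAX2 and ABCB19, by -2.49, -1.11 and -1.03), where 10.6% of all loci were higher and 9.5% lower. LAX3 was thus 1.91 above the shoots in the wild type root and differed by -0.35 from the shoots in the rml1 root. These organ differences were not tested, since each rests on 1 root array.

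**Figure D3:**
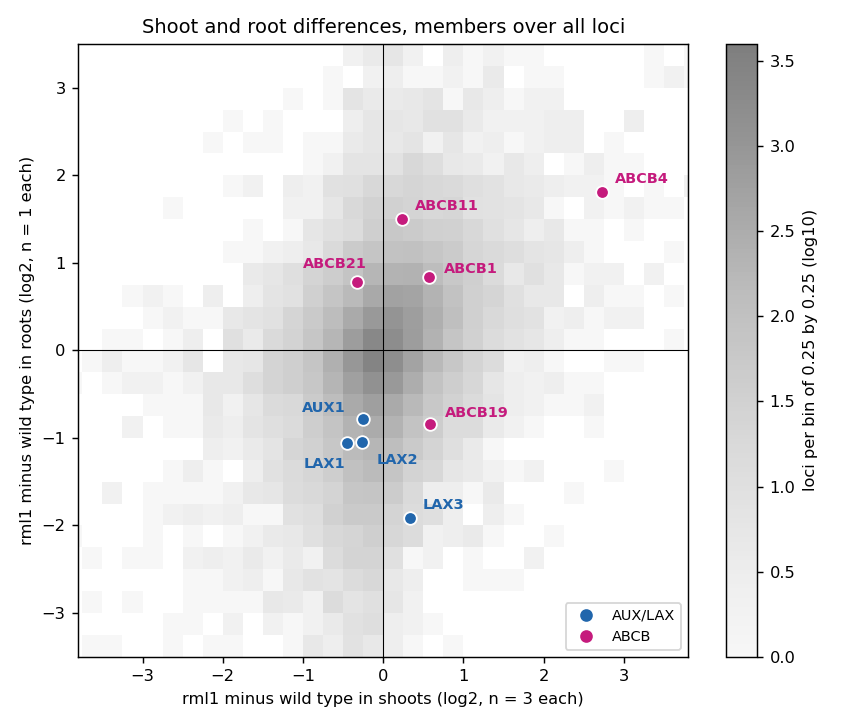
Difference of rml1 from wild type in shoots (horizontal, log2, n = 3 arrays each) and in roots (vertical, log2, n = 1 array each); grey squares give the number of loci per bin on a log10 scale, and points are the 9 genes (blue AUX/LAX, magenta ABCB). The 4 AUX/LAX genes lie below the horizontal line, ABCB4 lies at 2.73 and 1.81, and LAX3 and ABCB19 lie at lower right and ABCB21 at upper left, where the organs differ in sign.

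Bulk organs were measured, so a smaller share of cells of a type and less RNA per cell cannot be told apart. In roots, all 5 CASP genes of the endodermis were at least 2-fold lower in rml1, with a median level of 5.81 against 8.18 and a summed level of 8.93 against 11.13 (log2). Of 8 vascular markers 7 were lower in the rml1 root, with summed levels of 8.45 against 9.91. The exception, SUC2, was 0.51 log2 units higher there, whereas SEOR1 differed by -1.33 and APL by -0.25. The 3 root cap markers were all lower (summed level 4.77 against 5.70), and 4 of 6 root hair markers were lower (summed level 9.26 against 9.996), although RHD6 and RSL4 were 0.77 and 0.35 higher and the median level of the 6 was 5.75 in the rml1 root and 5.54 in the wild type root. Meanwhile photosynthesis markers summed to 11.60 in the rml1 root and 10.51 in the wild type root, with medians of 8.61 and 8.20. RBCS1A differed by 1.60, LHCB2.1 by 0.61, LHCA1 by 0.53 and PSBO1 by -0.099. The part of these cell types in the differences of the transporters was not tested.

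In shoots, the wild type range of the summed vascular markers was 9.61 to 9.78 and the rml1 range was 9.82 to 10.01, while the medians of the same markers overlapped (5.08 to 5.26 and 5.04 to 5.34). Summed levels add unlogged values, so the gene with the highest level weighs most. For the vascular markers that was SUC2, with a mean of 9.34 in rml1 shoots, against 7.26 for XCP2, the next highest. Of all loci 23.9% passed in shoots, which is the share to set beside the count of each marker list. Of these 8 markers 2 rose and 3 had an unadjusted p under 0.05. The 2 were SUC2 and APL of the phloem (log2 0.45, SE 0.11, limma adjusted p = 0.0219, and 0.66, SE 0.16, adjusted p = 0.0248). Both rises were lost when rml1 array 1 or 3 or wild type array 1 or 3 was omitted (adjusted p 0.0563 to 0.0823). The xylem genes that had lower means in rml1 did not pass: XCP2 (-0.33, adjusted p = 0.0523, but 0.0474 with wild type array 3 omitted), VND7 (-0.19), IRX3 (-0.18) and XCP1 (-0.12), and the median change of the 8 was -0.047. SEOR1 (0.024, limma adjusted p = 0.869) and PXY (0.087, adjusted p = 0.517) did not pass either. The summed endodermis markers ranged from 7.16 to 7.26 in the wild type and from 7.37 to 7.63 in rml1, their medians overlapped (4.68 to 4.73 and 4.67 to 4.80), and 1 of 5, CASP1, rose by 0.57 (SE 0.13, limma adjusted p = 0.0172). It was also the gene that weighed most in this sum, with a mean of 6.37 in rml1 shoots against 5.07 for CASP4, the next highest. CASP1 did not pass when rml1 array 2 or 3 was omitted (adjusted p 0.0523 to 0.0658). For root hair markers the summed levels overlapped, with 5.84 to 6.22 for the wild type and 5.61 to 6.45 for rml1, but their medians did not, with 3.32 to 3.49 for the wild type and 3.03 to 3.22 for rml1. Of these 6 markers 1, LRX1, fell by 0.43 (SE 0.11, limma adjusted p = 0.0258), and did not pass when rml1 array 2 or 3 or wild type array 1 or 3 was omitted (0.0642 to 0.0855). Root cap markers also overlapped (3.57 to 3.91 against 3.45 to 3.69), and 0 of 3 passed in limma, nor had any an unadjusted p under 0.05. Photosynthesis markers summed to 14.76 to 14.82 in the wild type and 14.72 to 14.74 in rml1, with 0 of 4 passing and 0 at an unadjusted p under 0.05. These sums did not overlap, nor did the medians (12.71 to 12.81 and 12.66 to 12.69), and all 4 had lower means in rml1.

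Among the other full-size ABCB transporters, which include genes with no known part in auxin transport, none of 16 was called in shoots by limma, while 2 had an unadjusted p under 0.05. Their median shoot change was -0.11, none differed 2-fold in roots, and 9 of the 16 were below the lower quartile on all 8 arrays. Of the 5 ABCB genes described above, 4 were called, where 23.9% of all loci were, and 0 were that low throughout. The call of ABCB21 was lost when any single array was left out. The difference between these sets was not tested.

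Of 15 PIN and PILS carriers, 4 rose in rml1 shoots, 3 fell and 8 did not pass, where 13.3% of all loci rose and 10.6% fell. PILS proteins hold auxin back in the endoplasmic reticulum, and PILS5 (log2 1.07, SE 0.16, limma adjusted p = 0.0036) and PILS3 (log2 1.00, SE 0.11, adjusted p = 0.0011) rose most. PIN7, an exporter of the plasma membrane, read 7.22, 7.01 and 7.24 in rml1 shoots and 6.72, 6.64 and 6.28 in wild type shoots (log2 0.61, SE 0.14, limma adjusted p = 0.0192). It did not pass when rml1 array 1 (adjusted p = 0.0663) or rml1 array 3 (0.0711) was left out. PILS6 also rose, by 0.33 (SE 0.09, limma adjusted p = 0.0410), and was named after its value was seen. With 1 array omitted it passed only where that was wild type array 1 (otherwise 0.0928 to 0.117).

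PIN5, a carrier of the endoplasmic reticulum, read 4.41, 4.21 and 4.23 in rml1 shoots, 5.08, 5.44 and 5.37 in wild type shoots, 3.74 in the rml1 root and 6.43 in the wild type root. It fell in shoots (log2 -1.01, SE 0.12, limma adjusted p = 0.0015) and was the single gene of this list past 2-fold in roots, at -2.69. PILS7 fell by 0.64 in shoots (SE 0.15, limma adjusted p = 0.0194, but 0.0625 when wild type array 2 and 0.0632 when wild type array 3 was omitted). PIN2, the carrier of the root epidermis, fell by 0.31 (SE 0.09, limma adjusted p = 0.0450), and did not pass with any 1 of the 6 arrays omitted (0.0735 to 0.142).

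Of 13 genes for proteins that place, fold or phosphorylate the transporters, 6 rose in shoots, 0 fell and 7 did not pass (9 had an unadjusted p under 0.05), where 13.3% of all loci rose and 10.6% fell. TWD1, the partner of ABCB1 and ABCB19, had a mean of 5.92 ± 0.08 in rml1 shoots and 5.56 ± 0.0076 in wild type shoots (log2 0.36, SE 0.08, limma adjusted p = 0.0204). It did not pass when rml1 array 1 or 2, or wild type array 2 or 3, was omitted (adjusted p 0.0564 to 0.0697). In roots TWD1 read 5.81 in rml1 and 6.41 in the wild type. ABCB19 was also lower in the rml1 root, whereas ABCB1 was 0.84 log2 units higher there. PHOT1, the blue light receptor kinase that phosphorylates ABCB19, rose by 0.39 in shoots (SE 0.08, limma adjusted p = 0.0110, and 0.0288 to 0.0433 with 1 array left out) and was 0.82 log2 units lower in the rml1 root.

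AXR4, an endoplasmic reticulum protein needed to bring AUX1 to the membrane, rose by 0.39 (SE 0.11, limma adjusted p = 0.0471), and passed with 1 array omitted only where that was wild type array 1 (otherwise 0.0938 to 0.137). PID, a protein kinase that sets the polarity of PIN proteins, read 4.99, 5.25 and 4.95 in rml1 shoots, a mean of 4.50 ± 0.12 in wild type shoots, 5.82 in the rml1 root and 4.12 in the wild type root. It rose in shoots (log2 0.56, SE 0.12, limma adjusted p = 0.0129) and was 1.70 log2 units higher in the rml1 root, and its relative WAG2 was 1.17 higher there, with a shoot change of 0.57 (SE 0.20) that did not pass (adjusted p = 0.0847, but 0.0196 with wild type array 2 omitted). D6PKL2 and D6PKL3, kinases of the same group, rose by 0.41 (SE 0.11, adjusted p = 0.0309) and 0.31 (SE 0.09, adjusted p = 0.0433). With 1 array omitted D6PKL2 passed only where that was wild type array 1 (otherwise adjusted p 0.0583 to 0.0916), and D6PKL3 passed in none of the 6 cases (0.0667 to 0.121). Their relatives D6PK and D6PKL1, named after their values were seen, had lower means in rml1 with groups that did not overlap, by -0.27 (SE 0.09, limma adjusted p = 0.0716) and -0.29 (SE 0.09, adjusted p = 0.0630). Neither passed, but both were called lower under quantile normalization (adjusted p 0.0294 and 0.0219), with the filter to loci above the median (0.0330 and 0.0284) and with the trend and robust options (0.0428 and 0.0441).

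**Figure D4:**
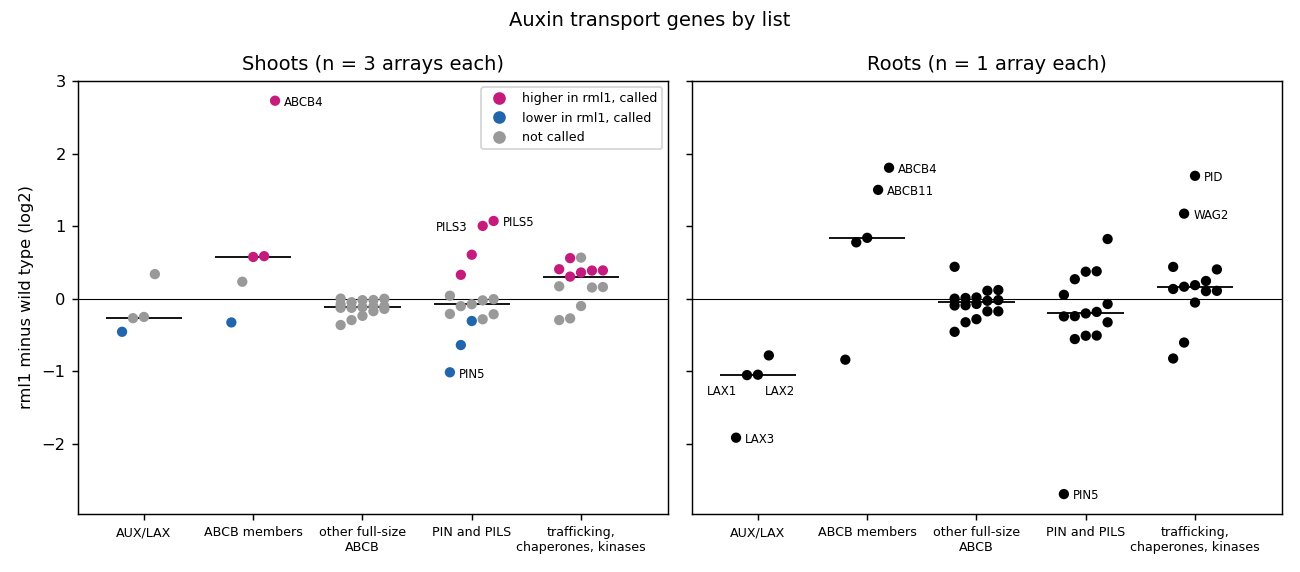
Difference of rml1 from wild type (log2) for each gene of 5 lists of auxin transport genes, in shoots (left, n = 3 arrays each, coloured by the limma call) and in roots (right, n = 1 array each); bars are list medians and genes past 2-fold are named. The other full-size ABCB genes lie near 0 in both organs, and PIN5 lies at -2.69 in roots.

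The loci whose 8 values were most like those of each transporter were sought over the whole table, by the root mean square difference of centred log2 values over 8 arrays. The pattern of ABCB4 was followed most closely by CAD1, a cinnamyl alcohol dehydrogenase, with a difference of 0.23 log2 units, a shoot change of 2.52 and a root difference of 1.53, and next by AT3G17110 (0.27). LAX3 was matched by FHY1, which takes phytochrome A to the nucleus (0.098), and by IRX9, of xylan synthesis in secondary cell walls (0.11), which differed by -1.87 and -2.03 in roots. The loci nearest to ABCB19 were AT1G21050 (0.078) and CYP83B1, of indolic glucosinolate synthesis (0.10), both of which rose in shoots and were lower in the rml1 root (-0.99 and -1.11).

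Near ABCB1 stood XRN4, a cytosolic exoribonuclease (0.051), and AT2G18090 (0.065). AUX1 was matched by MEE59 (0.074) and AT2G04280 (0.080), LAX2 by LYM1, a LysM protein of the plasma membrane (0.068), and PERK14 (0.089), and LAX1 by AT5G09820 (0.13) and J20, a DnaJ protein of plastids (0.15). ABCB21 was matched by AT3G47080 and AT1G48460 (0.083 each), and ABCB11 by COX15 (0.13) and AT1G26410 (0.15). Organ and genotype were shared by all these arrays, and many loci compete for the closest place, so likeness is given as a description.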

How the data were processed

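Expression was measured on Affymetrix Agronomics tiling arrays, with 1 sample per array. Per the submitters' processing notes the authors used RMA, and the deposited values are on the log2 scale. Which RMA version, probe assignment and build were used is not given in the sources used here. No positions are shown. Array medians over loci ran from 3.84 to 3.98 and lower quartiles from 2.14 to 2.37. RMA can compress small differences at low levels. The number of arrays limits the precision.

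Entries of a locus were averaged (30237 entries, 29920 loci). For shoots, limma 3.58.1 (R 4.3.3) fitted genotype alone with lmFit and eBayes, and two-sided p-values were adjusted over all loci by Benjamini and Hochberg (threshold 0.05), without a filter on low values, and the fit was tested on simulated data. Errors are SDs of arrays or standard errors (SE) of the log2 change. Roots were described by differences. Symbols came from a RefSeq table of assembly TAIR10.1, used for names and gene order.

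Named were the 9 genes, called members of 3 further lists (the 3 largest each way where over 6 were called), those past 2-fold in roots, ABCB12, and the 2 loci most like each gene. The members, lists and markers were chosen with earlier results of these data known. Of the 80 listed loci 1, a photosynthesis marker, is not analysed here. No sequences are shown. Alternatives were other normalizations, a filter, variance options, a replicate block, left-out arrays, single entries and other thresholds.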

Additional observations from a re-analysis of the deposited data

Results flagged for a closer look

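Genes counted here were the transporters, the other auxin transport genes and the markers named above, except LHCA1. Of these, 11 had shoot groups that did not overlap and single root arrays that differed in the opposite direction. Over all loci the shoot groups did not overlap for 42.1%, and the organs differed in the same direction for 61.8%. Many of the genes counted were named for a shoot call, which favours groups that do not overlap. Left out of this count were loci named for their likeness to a transporter, and listed genes that were not named, such as ABCB2 and PILS4. The marker LHCA1 was also left out, although its shoot groups did not overlap and it differed by -0.12 in shoots and 0.53 in roots. The difference between organs was not tested, because each root group holds 1 array. Of the 9 transporters these were 3: LAX3 differed by -1.91 log2 units in roots and by 0.34 in shoots, ABCB19 by -0.84 and 0.59, and ABCB21 by 0.78 and -0.33. The 8 others were PILS5 (-0.51 in roots), PILS6 (-0.072), PIN2 (0.055), TWD1 (-0.60), PHOT1 (-0.82), D6PKL1 (0.11), CASP1 (-1.86) and APL (-0.25).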

How the results depend on the processing

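The rises of ABCB1, ABCB4 and ABCB19 passed under all 14 alternatives tried and at an adjusted p under 0.01, and no member changed direction. The 2 falls were less firm: 0 to 1 member fell with 1 array left out, 1 under the replicate block, 0 at an adjusted p under 0.01 and 4 under quantile normalization. With 1 array left out LAX1 ranged from -0.52 to -0.39, ABCB21 from -0.36 to -0.28 and LAX3 from 0.29 to 0.43. Under the replicate block ABCB21 kept its -0.33 but did not pass (adjusted p = 0.105). Quantile normalization called AUX1 (-0.33) and LAX2 (-0.38), and the filter to loci above the median called LAX2 (-0.27) and LAX3 (0.34); the filter tests fewer loci (15533). Replicate numbers did not pair the samples (correlations of same-numbered deviations -0.098 to -0.0027), and with them as a block 5189 loci passed in place of 7138. The fit to all 8 arrays gave the same calls by construction. The fit to single entries could hardly differ for the members, which have 1 entry each.

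Other full-size ABCB genes had 1 fall under quantile normalization, array weights or the filter. With 1 array left out, 2 to 4 PIN and PILS genes rose and 1 to 2 fell, and 2 to 5 genes of trafficking, chaperones and kinases rose. The latter had 3 rises and 2 falls under quantile normalization, 2 falls with the filter or with the trend and robust options (D6PK and D6PKL1 in each case), and 2 rises under the replicate block. At an adjusted p under 0.01, 2 PIN and PILS genes rose, 1 fell and 0 of the kinase list rose. ABCB12, near 0, turned to 0.065 under quantile normalization and ranged from -0.063 to 0.025 with 1 array left out. In roots 4 genes were higher and 5 lower at 1.5-fold. Loci called over the table were 4508 without rml1 replicate 3 and 3583 at an adjusted p under 0.01. Causes were not tested.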
